A study of Homo sapiens with 6 samples.

Results

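The clustered protocadherins are the cadherin-like receptors encoded in tandem on chromosome 5 as the alpha, beta and gamma clusters. They were taken from the array as every non-control probe whose gene name was PCDHA, PCDHAC, PCDHB, PCDHGA, PCDHGB or PCDHGC followed by a number, a rule that uses no measured value. This gave 56 of 34127 probes and 48 of 25940 gene names, with 15 alpha genes (16 probes), 17 beta genes (18 probes) and 16 gamma genes (22 probes). By the positions in the array files (hg19), the probes cover 724 kb of chromosome 5 on the plus strand.

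RNA was measured in pLUM and pLB cells, both derived from T47Dco, a subline of the human T47D breast cancer line, after growth as tumors in ovariectomized NSG mice. pLUM (luminal; CLD3+ CD49f-) was sorted by FACS from cells of an E tumor and kept in E, and its 3 samples had received 1 nM E (estradiol) for 72 h. pLB (luminobasal; CLD3- CD49f+) was sorted from cells of an E + P (estradiol plus progesterone) tumor, and its 3 samples were under EWD (estrogen withdrawal). All samples had been fixed, stained for CK5 and sorted, and which CK5 fraction was hybridized is not stated. Each line came from 1 sorted population and hormone coincided with line on all 6 arrays, so line, tumor of origin and E cannot be told apart. The 3 samples of a line came from separate sorts by the study's methods, which do not say whether the sorted cells came from separate cultures, and p-values therefore measure only the spread between these samples, which may be technical.

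Levels are the background-corrected intensity of a probe divided by the 75th percentile of its array and given as log2, so that 0 is that percentile. They are compared between the lines for 1 probe at a time, not between probes. Only the summed signals of markers of other cell types join several probes. A probe was tested if the scanner software flagged it as well above background on 3 or more of the 6 arrays, and called if the lines differed by at least 2-fold with an adjusted p under 0.05 in limma over all 23106 tested probes. Between 21287 and 22778 probes were well above background on each array, and r was 0.972 to 0.991 within a line and 0.780 to 0.806 between the lines. The slides did not divide the arrays as the lines did: slide 1 held the 3 pLUM arrays and pLB replicate 1, and slide 2 held pLB replicates 2 and 3. Of the luminal markers, 7 of 8 were lower in pLB (23.0% over all genes, 1 probe each), among them PGR, GATA3 and CLDN3. All 6 of 6 luminobasal markers were higher (22.7% over all genes), among them KRT5, TP63 and ITGA6 (CD49f). These directions are those that the labels of the lines imply. KRT8, counted as lower, had another probe that was higher. KRT5 and TP63 were well above background on pLB arrays only, and PGR on pLUM arrays only.

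Clustered protocadherins are best known from neurons, where each cell uses a few of the variable exons and the resulting surface proteins bind the same isoform on other cells. In the alpha and gamma clusters, each variable exon has its own promoter and codes for the extracellular domain, the membrane span and part of the cytoplasmic tail, and is spliced to a shared set of constant exons at the end of the cluster that code for the rest of the tail. Beta genes are single variable exons with no constant exons, and most promoters of the clusters carry a short conserved element with a CGCT core, near which the insulator protein CTCF binds. Promoter choice has been linked to DNA methylation, and epithelial tumors can silence parts of the clusters together.

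The promoters are shown first because the clusters differed by line and are told apart by the bases around this core. RefSeq promoters (GRCh38.p14; 300 bases from 250 before to 50 after the start) were held for 40 of the 48 genes and for 7 further protocadherins of the clusters that had no probe of their own. The 8 members with no entry were PCDHA3, PCDHA13, PCDHB6, PCDHB11, PCDHB17P, PCDHB18P, PCDHGA12 and PCDHGC5. Each stretch below has 45 bases of the plus strand with 1 CGCT in capitals. Where a promoter has several, that in the surroundings shared with its cluster is marked, except in C-type genes. Each set pairs members that were called with members that were not. The alpha set has PCDHA2, PCDHA6, PCDHA8 and PCDHA10, which were lower in pLB, and PCDHA1, PCDHA4 and PCDHA12, which were not called.
PCDHA2 (chr5:140794772-140794816): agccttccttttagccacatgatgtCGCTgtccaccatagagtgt
PCDHA6 (chr5:140827888-140827932): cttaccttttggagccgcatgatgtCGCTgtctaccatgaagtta
PCDHA8 (chr5:140841121-140841165): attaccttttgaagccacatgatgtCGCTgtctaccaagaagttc
PCDHA10 (chr5:140855832-140855876): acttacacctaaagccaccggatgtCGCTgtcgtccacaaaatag
PCDHA1 (chr5:140786077-140786121): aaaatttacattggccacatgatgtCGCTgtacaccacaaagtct
PCDHA4 (chr5:140806970-140807014): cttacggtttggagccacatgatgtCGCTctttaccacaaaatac
PCDHA12 (chr5:140875235-140875279): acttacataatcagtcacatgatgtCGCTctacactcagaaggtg

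The beta set has PCDHB2, PCDHB10, PCDHB12 and PCDHB13, which were higher in pLB, and PCDHB9, PCDHB15 and PCDHB4, which were not called.
PCDHB2 (chr5:141094535-141094579): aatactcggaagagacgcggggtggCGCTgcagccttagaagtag
PCDHB10 (chr5:141192290-141192334): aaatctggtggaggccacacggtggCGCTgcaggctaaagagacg
PCDHB12 (chr5:141208634-141208678): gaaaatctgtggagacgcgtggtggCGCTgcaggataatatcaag
PCDHB13 (chr5:141213856-141213900): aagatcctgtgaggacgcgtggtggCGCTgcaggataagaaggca
PCDHB9 (chr5:141187065-141187109): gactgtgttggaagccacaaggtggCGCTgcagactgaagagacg
PCDHB15 (chr5:141245305-141245349): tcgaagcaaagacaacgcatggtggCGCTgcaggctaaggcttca
PCDHB4 (chr5:141121714-141121758): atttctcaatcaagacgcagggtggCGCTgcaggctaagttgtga

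The gamma and C-type set has PCDHGA3, PCDHGB1 and PCDHGB6, which were higher in pLB, PCDHGA9, which was not called, and PCDHAC2 and PCDHGC4, which could not be tested. For PCDHAC2 and PCDHGC4 no shared surroundings were set. The CGCT marked there is the one nearest the start in the stretch searched, and need not be the conserved element.
PCDHGA3 (chr5:141343758-141343802): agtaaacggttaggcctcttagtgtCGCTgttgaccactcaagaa
PCDHGB1 (chr5:141350016-141350060): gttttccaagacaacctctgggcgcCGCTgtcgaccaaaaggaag
PCDHGB6 (chr5:141407915-141407959): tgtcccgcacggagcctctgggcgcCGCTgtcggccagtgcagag
PCDHGA9 (chr5:141402705-141402749): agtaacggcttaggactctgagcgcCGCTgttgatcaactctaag
PCDHAC2 (chr5:140966410-140966454): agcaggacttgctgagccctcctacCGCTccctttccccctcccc
PCDHGC4 (chr5:141484943-141484987): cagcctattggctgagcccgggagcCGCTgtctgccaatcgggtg

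CGCT, searched on both strands, was present in 46 of 47 promoters of the clusters (97.9%) and in 70.0% of all 35116 promoters of the table, PCDHA9 being the exception. Longer motifs that contain it, chosen after the promoters had been read, followed the cluster. GATGTCGCT was present in 9 of 11 alpha promoters (not in PCDHA9 or PCDHA11), in no beta or gamma promoter and in 0.105% of all. GGTGGCGCT was present in 13 of 14 beta promoters (not in PCDHB1), in no alpha or gamma promoter and in 0.501% of all. CGCTGTT was present in 10 of 11 gamma A promoters, in 3 of 7 gamma B promoters, in 1 of 14 beta promoters and in 2.26% of all. The motif of a cluster stood in called and in uncalled members, as in PCDHA2 and PCDHA1 and in PCDHB12 and PCDHB15, whereas PCDHA9, which was called, did not carry it. By the first entry of each gene, GC content was 32.3 to 51.3% in the promoters of the alpha, beta, gamma A and gamma B genes and 59.0 to 66.0% in those of 4 C-type genes (second entries of gamma B genes reached 65.0%), beside a median of 58.7% over all promoters. A match is a description of the letters, and binding and methylation were not measured.

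Of the 56 probes, 47 were tested, from 41 of the 48 genes. pLB was higher at 20 of 47 probes (42.6%) and lower at 6 (12.8%), beside 21.9% higher and 23.7% lower over all tested probes. By adjusted p alone, with no fold threshold, 24 were higher and 9 lower (31.1% and 31.6% over all tested probes). The directions were divided by cluster: 1 higher and 6 lower of 14 alpha probes, and 12 higher and none lower of 16 beta probes. Of 17 gamma probes, 7 were higher and none lower. PCDHA2, PCDHA8 and PCDHA10 passed the filter only through the pLUM arrays, and PCDHB6 and PCDHB17 only through the pLB arrays. The filter thus left these genes little room for the other direction, and they add little to the counts. Among probes well above background on all 6 arrays, 3 of 11 alpha probes were lower and 10 of 13 beta probes higher. The median log2 difference, pLB minus pLUM, was -0.73 in alpha, 2.17 in beta and 0.86 in gamma, and -0.01 over all tested probes. The 3 pLB arrays lay above the 3 pLUM arrays at 27 probes and below them at 9, and overlapped them at 11 (34.3% above and 33.8% below over all tested probes). With slide as a block, where pLB replicate 1 alone stands against the pLUM arrays, 17 members were higher and 7 lower, and within slide 1 the differences at the 6 lower alpha genes were -4.06 to -2.73. In bulk RNA, fewer cells that use a gene and less RNA per cell cannot be told apart.

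**Figure D1:**
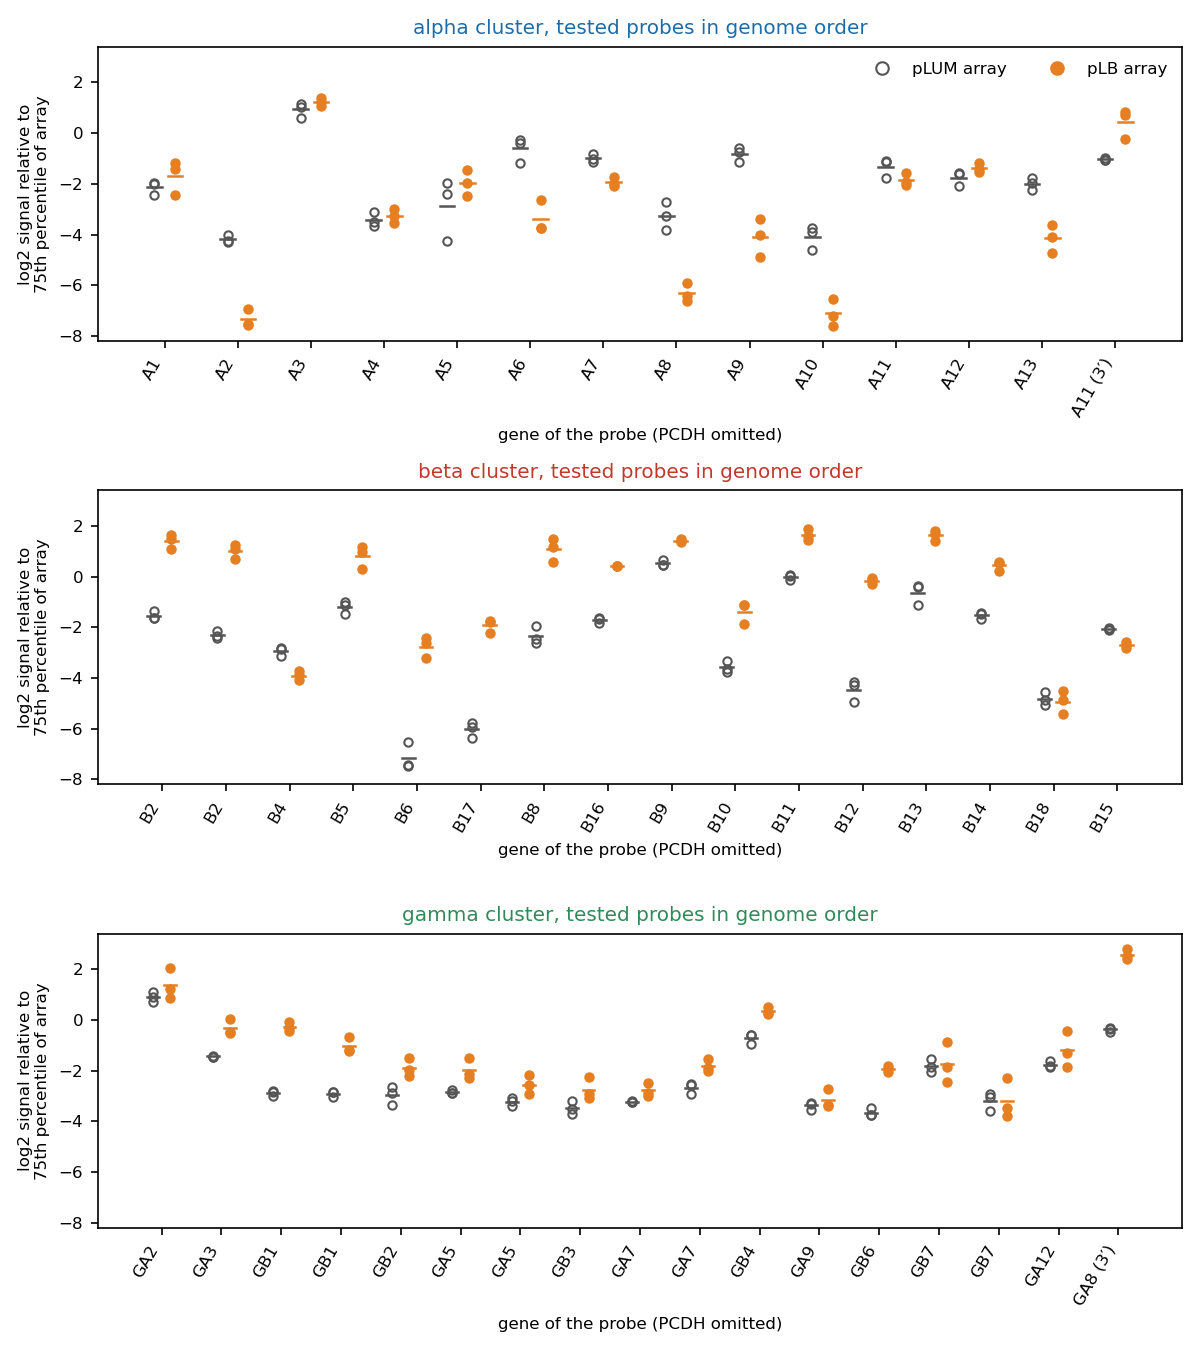
Log2 signal relative to the 75th percentile of the array (vertical axis) of each tested probe in genome order (horizontal axis, PCDH omitted from the names), in 1 panel per cluster. Open grey points are the 3 pLUM arrays, filled orange points the 3 pLB arrays and short lines their means, and 3′ marks a probe beyond the last variable exon. Filled points lie far below open ones at 6 alpha genes and above them at most beta probes, whereas the gamma gaps are mostly narrow. At PCDHA2, PCDHA8 and PCDHA10 no filled point, and at PCDHB6 and PCDHB17 no open point, was well above background.

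The alpha cluster, which in neurons is used from its variable exons one or a few at a time, had the members that were lower in pLB. They were PCDHA2, PCDHA6, PCDHA8, PCDHA9, PCDHA10 and PCDHA13, all of them variable exons of the same type, and at each of them the 3 pLB arrays were below the 3 pLUM arrays. The other 7 of 13 variable-exon genes, PCDHA1, PCDHA3, PCDHA4, PCDHA5, PCDHA7, PCDHA11 and PCDHA12, were not called.

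PCDHA9 read -0.75, -1.12 and -0.59 on the pLUM arrays and -4.88, -4.01 and -3.39 on the pLB arrays. It was 9.65-fold lower in pLB (log2 difference -3.27, SE 0.37, adjusted p = 2.3e-04 in limma), and every pLB array was more than 2-fold below every pLUM array. Its probe lies at chr5:140233036-140233095 (hg19) and begins ctccttatatgcatctgtagttaacattcc. PCDHA6 read -0.25, -0.38 and -1.16 in pLUM and -3.75, -3.74 and -2.64 in pLB and was 6.87-fold lower (SE of the log2 difference 0.38, adjusted p = 5.3e-04). PCDHA13 read -1.76, -1.96 and -2.24 in pLUM and -4.72, -4.09 and -3.63 in pLB and was 4.47-fold lower (SE 0.29, adjusted p = 5.5e-04). At each of these 3 genes the lines did not overlap, and all 6 arrays were well above background, so that the genes were measured in both lines.

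PCDHA2, PCDHA8 and PCDHA10 were well above background on all pLUM arrays and on no pLB array. Their folds are therefore given as lower bounds, which hold for the background correction used here. PCDHA2 read -4.28, -4.0 and -4.26 in pLUM and -7.56, -7.51 and -6.93 in pLB. It was at least 2.16-fold lower, with an adjusted p of 2.1e-05 in limma for the fitted difference and not for the bound. PCDHA8 read -2.72, -3.28 and -3.80 in pLUM and -6.41, -6.60 and -5.91 in pLB, and was at least 4.07-fold lower (adjusted p = 0.0013). With normexp background correction, an alternative way to remove it, the differences at PCDHA2 and PCDHA8 were still called but smaller, at -1.07 and -1.15. Both are folds below the bounds. The bound for PCDHA10 was 2.30-fold (pLUM mean -4.09, pLB mean -7.11, adjusted p = 0.012). With normexp PCDHA10 was no longer called (log2 difference -0.99, adjusted p = 0.053), and its fold was below the bound. These bounds compare the pLUM mean with the lowest signal well above background on each pLB array or the signal of the probe itself, whichever was higher. The adjusted p given for PCDHA8 and PCDHA10 is from limma on values floored in this way. That given for PCDHA2 is from values without the floor. On floored values PCDHA2 was still called, with a larger adjusted p.

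Of the uncalled alpha genes, PCDHA7 came nearest, with pLUM at -0.83, -1.01 and -1.13 and pLB at -2.09, -2.0 and -1.72, a difference of -0.94 (SE 0.18, adjusted p = 0.0028) that was 1.93-fold and hence just under the fold threshold. With slide as a block it was -1.10 and was called. PCDHA5 had the widest spread of all tested members, with pLUM at -1.98, -2.39 and -4.27 (SD 1.22) and pLB at -2.46, -1.45 and -1.96, and its difference of 0.93 (SE 0.59, adjusted p = 0.20) was within that spread. For PCDHA1, PCDHA3, PCDHA4, PCDHA11 and PCDHA12 the differences were 0.46, 0.29, 0.15, -0.52 and 0.38, with adjusted p from 0.095 to 0.57. PCDHA3 sat between 0.61 and 1.38 on all 6 arrays, with the lines overlapping. In genome order the lower genes did not form 1 block: PCDHA2 stood apart between PCDHA1 and PCDHA3, PCDHA6 was followed by PCDHA7, PCDHA8 to PCDHA10 were consecutive, and PCDHA13 came after PCDHA11 and PCDHA12.

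**Figure D2:**
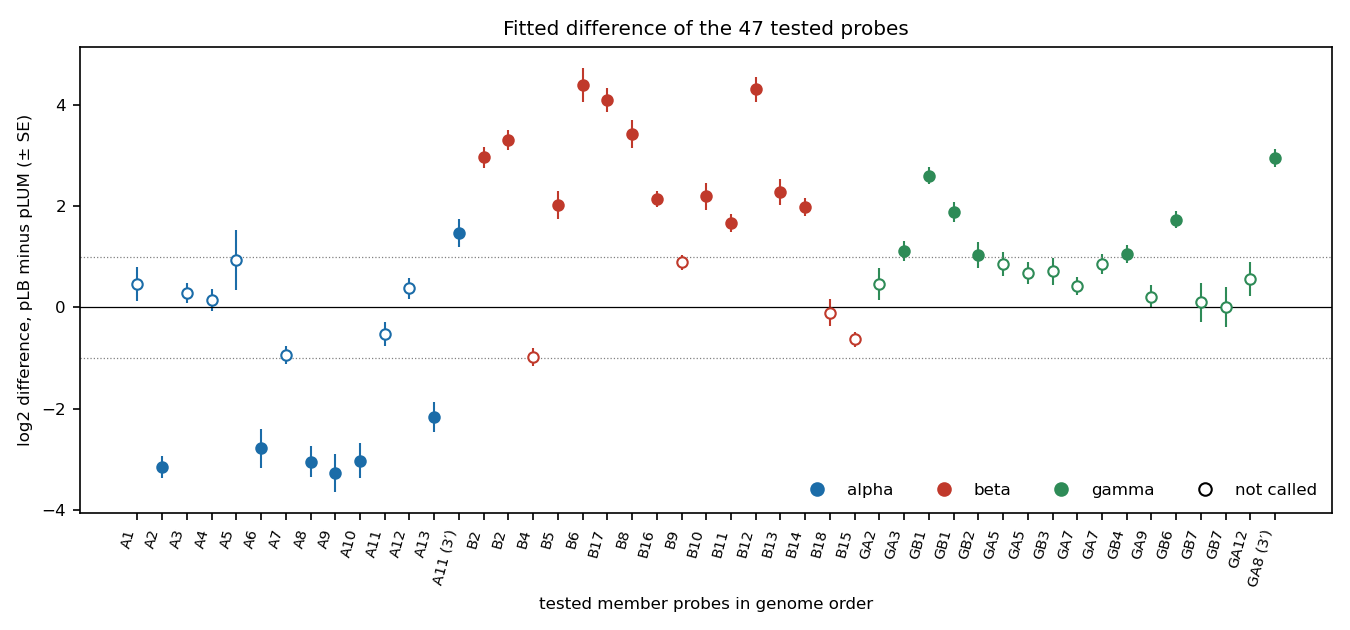
Fitted log2 difference, pLB minus pLUM (vertical axis), with its standard error for the 47 tested probes in genome order (horizontal axis). Filled points were called (at least 2-fold, dotted lines, with an adjusted p under 0.05) and open points were not; alpha is blue, beta red and gamma green. Called alpha points lie between -3.27 and -2.16 except for the 3′ probe at 1.47, called beta points between 1.66 and 4.39, and called gamma points between 1.04 and 2.95. PCDHA2, PCDHA8, PCDHA10, PCDHB6 and PCDHB17, well above background in 1 line only, are drawn at fitted values. Their bounds are -1.11, -2.02, -1.20, 2.65 and 3.48.

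The beta cluster moved the other way, with 11 of 15 tested genes higher in pLB. They were PCDHB2, PCDHB5, PCDHB6, PCDHB8, PCDHB10, PCDHB11, PCDHB12, PCDHB13, PCDHB14, PCDHB16 and PCDHB17, of which PCDHB17 is a pseudogene (PCDHB17P in RefSeq) and the rest code for single-exon receptors. PCDHB12 read -4.29, -4.95 and -4.14 in pLUM and -0.06, -0.29 and -0.12 in pLB, and was 19.7-fold higher (log2 difference 4.30, SE 0.24, adjusted p = 7.8e-06). The probe of PCDHB12 lies at chr5:140590795-140590854 (hg19) and begins caacttcctaccccagagcacaggtagtga. PCDHB8 read -2.62, -2.46 and -1.96 in pLUM and 1.47, 1.17 and 0.58 in pLB, and was 10.7-fold higher (SE of the log2 difference 0.28, adjusted p = 4.8e-05). At both genes the lines were separated by more than 2 log2 units on every array.

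PCDHB2 had a pair of probes, the first of which is also listed for PCDHB3, a gene with no probe of its own. The first read -1.65, -1.65 and -1.37 in pLUM and 1.64, 1.47 and 1.09 in pLB (7.76-fold higher), and the second -2.42, -2.35 and -2.13 in pLUM and 1.25, 1.09 and 0.70 in pLB (9.93-fold higher, adjusted p = 1.1e-05). The probes of PCDHB2 thus gave folds of like size. PCDHB6 and PCDHB17 were well above background on no pLUM array and on all 3 pLB arrays. PCDHB6 read -2.41, -2.64 and -3.23 in pLB and was at least 6.28-fold higher, and PCDHB17 read -1.80, -1.74 and -2.24 in pLB and was at least 11.2-fold higher. With normexp background correction the difference at PCDHB6 was 0.68 (adjusted p = 0.19) and was not called. That at PCDHB17 was 1.14 (adjusted p = 0.026), and at both genes the fold was below the bound.

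The remaining called beta genes were measured in both lines. PCDHB16 had the narrowest spread, with pLUM at -1.65, -1.85 and -1.66 and pLB at 0.43, 0.43 and 0.40, a 4.41-fold rise (SE of the log2 difference 0.15, adjusted p = 2.3e-05). PCDHB13 rose 4.86-fold, PCDHB10 4.57-fold, PCDHB5 4.06-fold, PCDHB14 3.93-fold and PCDHB11 3.16-fold, with standard errors of 0.18 to 0.27 on the log2 scale and adjusted p from 6.7e-05 to 4.9e-04. At none of these 6 genes did a pLB array fall to the level of a pLUM array.

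Members that were not called lay among the called ones. PCDHB9 read 0.47, 0.47 and 0.66 in pLUM and 1.39, 1.38 and 1.49 in pLB, a difference of 0.89 (SE 0.15, adjusted p = 0.0018) that was 1.85-fold. PCDHB4, between PCDHB2 and PCDHB5, read -2.81, -2.84 and -3.12 in pLUM and -3.90, -3.72 and -4.09 in pLB, a difference of -0.98 (SE 0.18, adjusted p = 0.0024) that was 1.97-fold, just under the fold threshold. PCDHB15, the last beta gene, differed by -0.63 (SE 0.15, adjusted p = 0.0089), and the pseudogene PCDHB18 by -0.10 (SE 0.27, adjusted p = 0.77). PCDHB4 and PCDHB15 were thus the beta genes at which all pLB arrays lay below all pLUM arrays. PCDHB1 and PCDHB7 could not be tested, PCDHB1 being well above background on no array and PCDHB7 on 1 pLB array alone, with readings of -5.95, -7.96 and -3.62 in pLB.

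Some probes of beta genes resemble each other, which bears on how separate these readings are. Among 1532 pairs of probes of different members, aligned without gaps over at least 40 bases, 2 shared at least 45 bases: PCDHB2 with PCDHB13 (48 bases) and PCDHB8 with PCDHB11 (46 bases). The next pair was PCDHB16 with PCDHB9 (43 bases), of which the first rose 4.41-fold and the second differed by 1.85-fold. PCDHB15 shared 41 bases with the first PCDHB2 probe and differed in the opposite direction. Cross-hybridization was not tested.

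The gamma cluster had smaller gaps. PCDHGB1, PCDHGB2, PCDHGB4, PCDHGB6 and PCDHGA3 were higher in pLB by their own probes, and no own probe of a gamma gene was lower. PCDHGB1 was measured by a pair of probes, which read -2.79, -2.84 and -2.99 and -2.85, -2.85 and -3.03 in pLUM. In pLB they read -0.31, -0.45 and -0.07 and -1.22, -1.18 and -0.69, and were 6.05-fold (adjusted p = 1.7e-05) and 3.68-fold (adjusted p = 1.5e-04) higher. The lines did not overlap at either probe.

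PCDHGB6 read -3.75, -3.47 and -3.75 in pLUM and -1.95, -2.06 and -1.80 in pLB and was 3.31-fold higher (SE of the log2 difference 0.17, adjusted p = 1.1e-04). With normexp background correction it was 0.59 (adjusted p = 0.13). PCDHGA3, PCDHGB2 and PCDHGB4 were just past the fold threshold, at 2.16-fold, 2.06-fold and 2.09-fold (adjusted p from 0.0017 to 0.010). Each of these 3 fell under the fold threshold without pLB replicate 3 (log2 differences 0.94, 0.85 and 0.97), with slide as a block (0.92, 0.73 and 0.99) and with normexp (0.81, 0.42 and 0.90), and PCDHGB2 and PCDHGB4 also without pLUM replicate 3 (0.85 and 0.94). Gamma A and gamma B genes alternate along the cluster, and their own probes were called higher at 1 of 8 (gamma A) and 5 of 8 (gamma B); whether the types differ was not tested.

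Of the gamma genes that were not called, PCDHGA5 differed by 0.86 and 0.68 at its probes and PCDHGA7 by 0.43 and 0.86, with the lines not overlapping at any of the 4. PCDHGB3 differed by 0.71 (adjusted p = 0.053), PCDHGA12 by 0.56, PCDHGA2 by 0.46 and PCDHGA9 by 0.21. PCDHGB7 overlapped between the lines at both probes, with differences of 0.10 and 0.01 (adjusted p = 0.84 and 0.99). It read -1.56, -1.86 and -2.05 in pLUM and -2.44, -1.87 and -0.86 in pLB at the first probe. At PCDHGB7 and PCDHGA12, as at most gamma probes, pLB replicate 3 was the highest pLB array; the median over the gamma probes was -2.0, -1.9 and -1.52 on pLB replicates 1, 2 and 3. Several gamma probes are listed for more than 1 member: those of PCDHGA2, PCDHGA3, PCDHGB4 and PCDHGA12, and 1 of PCDHGA7, so that the name on such a probe is 1 of several that it may measure. With only probes that list 1 gene, 4 gamma probes were called higher in place of 7.

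C-type genes have their own variable exons next to the constant exons and, unlike the others, are used in most neurons without choice. PCDHAC1, PCDHAC2, PCDHGC3, PCDHGC4 and PCDHGC5 had 6 probes, and none of these passed the filter. They read from -7.36 to -4.36 over all arrays, and 2 of the 6 were well above background on no array. The own probe of PCDHGA8 was likewise well above background on no array.

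A pair of probes lies beyond the last variable exon of its cluster, toward the constant exons, and both were higher in pLB. The alpha probe, named PCDHA11 on the array and listed for PCDHA11, PCDHA9, PCDHAC1 and PCDHAC2, lies at chr5:140390896-140390955 (hg19) and begins tcttactaacacctatgatgttacctgaaa. It read -0.97, -1.05 and -1.06 in pLUM and 0.83, 0.71 and -0.21 in pLB, and was 2.77-fold higher (log2 difference 1.47, SE 0.28, adjusted p = 0.0031). The gamma probe, named PCDHGA8 and listed for PCDHGA8, PCDHGA11, PCDHGA2 and PCDHGA12, lies at chr5:140892394-140892453 (hg19) and begins gtactgacttctcctataagcgcttctctt.
That probe read -0.37, -0.46 and -0.30 in pLUM and 2.81, 2.51 and 2.40 in pLB, and was 7.73-fold higher (log2 difference 2.95, SE 0.17, adjusted p = 9.6e-06). On both, every pLB array was above every pLUM array. In alpha the direction was the opposite of that of all 6 called variable exons, and in gamma the rise was the largest of any tested gamma probe.

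How the probes of the alpha and gamma variable exons were designed bears on that contrast. All 36 own probes were labelled transcript variant 2, and none listed another RefSeq transcript of its gene. For 24 of the 36 the list held 4 accessions, the most that the array files give, so that further matches could be missing there. RefSeq describes variant 2 of most of these genes as a short form that ends in an extended variable exon and is not spliced to the constant exons, whereas each probe of the pair beyond the last variable exon lists transcripts of 4 genes. Whether spliced, full-length transcripts of a single alpha or gamma gene differed between the lines was not measured apart from the other genes. Whether a probe lies in coding sequence or in a UTR was not determined here.

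**Figure D3:**
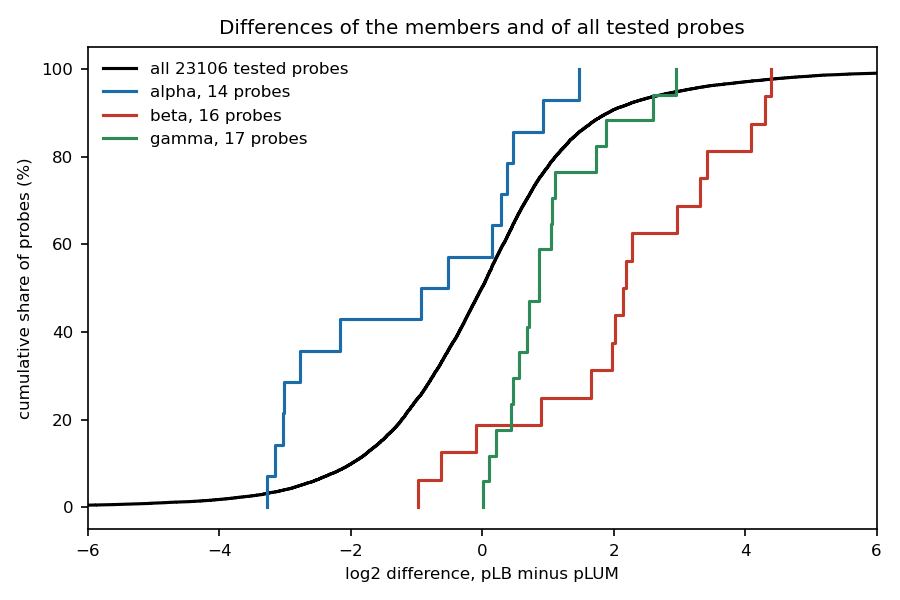
Cumulative share of probes in percent (vertical axis) against the log2 difference, pLB minus pLUM (horizontal axis, drawn from -6 to 6), for all 23106 tested probes (black) and for the tested probes of the alpha (14, blue), beta (16, red) and gamma (17, green) clusters. The beta line lies to the right of the black line (median 2.17 against -0.01), the gamma line mostly to its right (0.86), and the alpha line to its left over its lower part (median -0.73).

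The genes around the clusters did not move in 1 direction. Of 39 other gene names within 1 Mb of the outermost probes, 35 were tested, and 9 were higher and 8 lower in pLB, with a median difference of 0.41 (22.7% higher and 23.0% lower over all genes, 1 probe each). Before the alpha cluster, 5 of 21 tested genes were higher, namely NRG2, PFDN1, HBEGF, SLC4A9 and SLC35A4, and 6 were lower, namely PURA, IGIP, ANKHD1-EIF4EBP3, APBB3, IK and HARS2. After the gamma cluster, 4 of 12 were higher, namely DIAPH1, ARAP3, PCDH1 and SPRY4, and 2 were lower, namely KIAA0141 and RNF14. At PCDH1, SPRY4 and KIAA0141 a second tested probe was not called. HBEGF, SLC4A9 and SPRY4 passed the filter only through the pLB arrays. Between the clusters stand SLC25A2, a mitochondrial ornithine carrier, and TAF7, a subunit of the general factor TFIID, and neither was called, at -1.06 (SE 0.44, adjusted p = 0.069) and 0.34 (SE 0.23, adjusted p = 0.24). ZMAT2, next to the alpha cluster, differed by 0.80 and was not called, and HARS2 beyond it was 2.20-fold lower.

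**Figure D4:**
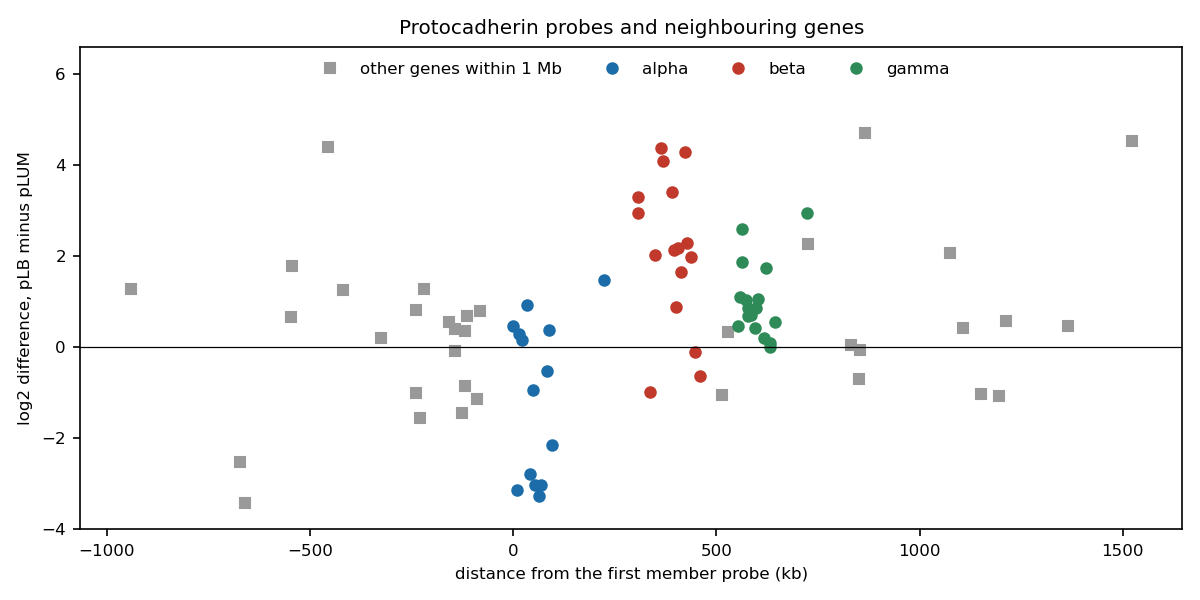
Log2 difference, pLB minus pLUM (vertical axis), against distance from the first member probe in kb (horizontal axis) for the tested probes of the alpha (blue), beta (red) and gamma (green) clusters and for 35 other genes within 1 Mb (grey squares, 1 probe per gene). The low alpha points, down to -3.27, and the high beta points, up to 4.39, stand next to each other. Grey squares lie between -3.43 and 4.41 before the clusters and between -1.08 and 4.71 after them. Genes well above background in 1 line only, PCDHB6 at 4.39 among them, are drawn at fitted values and not at bounds.

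The nonclustered protocadherins, which are encoded 1 gene at a time elsewhere in the genome or next to the clusters, were 12 on the array, of which 4 were tested and called higher in pLB (22.7% over all genes, 1 probe each). Of these, PCDH9 and PCDH19 passed the filter only through the pLB arrays, so that the count says little. PCDH9 was well above background on all pLB arrays and on no pLUM array and was at least 111-fold higher, at all 3 of its probes called. PCDH7, well above background on 2 of the 3 pLUM arrays, was 23.8-fold higher, PCDH19 at least 8.10-fold and PCDH1 4.16-fold. Adjusted p in limma was 1.4e-06 to 3.7e-05 at the 4 genes, from the fitted differences and not from the bounds. A second probe of PCDH1 was not called. PCDH8, PCDH10, PCDH11X, PCDH12, PCDH15, PCDH17, PCDH18 and PCDH20 were under the filter. Of 6 tested large atypical cadherins, 3 were higher and none was lower (22.7% and 23.0% over all genes, 1 probe each). They were FAT1 (at least 22.1-fold), FAT2 (66.1-fold, with 2 of the 3 pLUM arrays well above background) and CELSR2 (2.90-fold). These belong to the Fat and Flamingo families of planar polarity receptors. FAT1 passed the filter only through the pLB arrays. FAT4, DCHS1 and DCHS2 were under the filter.

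Factors known for promoter choice and silencing at the clusters were mostly not called, with 1 of 17 higher and 4 lower (22.7% and 23.0% over all genes). TET3 was under the filter, and SMC1A, STAG2 and SMCHD1, not called at the probe used, each had another probe that was lower. CTCF, the insulator protein, differed by 0.61 (SE 0.20, adjusted p = 0.032), and the cohesin subunit RAD21 by 0.71 (adjusted p = 0.0087), both under 2-fold. WAPAL, which releases cohesin from DNA, was 3.92-fold lower at 1 of its probes and not called at the other. Of the enzymes of DNA methylation, DNMT3A was 3.02-fold higher at 3 of 3 probes called and DNMT3B 3.39-fold lower at 1 of its 2 probes, and DNMT1 differed by 0.71. TET1 and TET2, which oxidize methylcytosine, were 2.53-fold and 2.94-fold lower, TET2 at 1 of 4 probes.

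Of 17 tested partners and proteases of clustered protocadherins, 3 were higher and 3 lower, a share near that over all genes. ADAM10, which sheds the extracellular part, was 7.99-fold higher at both probes called, and NCSTN, a subunit of the gamma-secretase that cuts the remaining stub, was 2.28-fold higher. The kinase FYN was 43.0-fold higher, whereas PTK2 (FAK) differed by 0.89 and PTK2B (PYK2) by -0.98, under 2-fold. CYFIP2, ABI1 and ABI2 of the WAVE complex, which binds the alpha tail, were 2.88-fold, 2.14-fold and 2.04-fold lower, with a second CYFIP2 probe not called. RET was not called at the probe used, whereas its other probe was lower.

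Markers of other cell types were set beside these results, since the clusters are chiefly known from neurons. Of 10 neuronal and glial markers, SYP, STMN2, NEFL, NEFM and GFAP were well above background on no array. SNAP25, RBFOX3 and SYT1, 3 of the 5 tested, were higher in pLB (22.7% over all genes, 1 probe each). RBFOX3, and COL1A2 of the fibroblast markers, passed the filter only through the pLB arrays. The summed signal of the 10 neuronal and glial markers was 13.7 to 15.0 times the 75th percentile in pLUM and 11.6 to 13.9 times in pLB. Most of it came from TUBB3, which was not called, while RBFOX3 was at least 4.97-fold higher. Of 7 fibroblast markers 5 (COL3A1, PDGFRB, PDGFRA, LUM and DCN) and of 5 endothelial markers 3 (PECAM1, KDR and TEK) were well above background on no array, whereas COL1A2 (at least 11.7-fold) and VWF (2.08-fold) were higher in pLB. The summed fibroblast signal, most of it from COL1A1, was 0.772 to 0.971 in pLUM and 0.791 to 1.15 in pLB. The endothelial sum was 0.0778 to 0.114 and 0.0987 to 0.215, and the leukocyte sum 0.470 to 0.595 and 0.428 to 0.552. CD68 was the 1 leukocyte marker called at the probe used, higher in pLB, whereas PTPRC had another probe that was lower.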

How the data were processed

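The authors deposited 1 scanner file per 1-colour (Cy3) array, written by Feature Extraction 10.10.1.1 (Agilent), with a linear intensity for each spot, corrected for background and detrended, and with flags and 60-base probe sequences. The flags (other columns) were used as deposited. No scaling between arrays had been applied; Partek is named in the submitters' processing notes. From these intensities, control and outlier spots (296 to 387 per array) were left out, spots of a probe were averaged as log2, and each array was divided by its 75th percentile (449 to 869 units). Only 3 arrays per line limit the precision. No spot of a member was saturated.

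pLB was set against pLUM by lmFit and eBayes (limma 3.58.1, R 4.3.3) with Benjamini-Hochberg adjustment over 23106 probes, and the script was tested on simulated data. For list genes and neighbours, the probe with the highest mean over the 6 arrays was used. Promoters are those of RefSeq (GRCh38.p14), and no position of that build was set against the hg19 positions of the files. All 56 probe transcripts matched RefSeq, which was otherwise used for names only.

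Every member gene is named, those under the filter as such, and so is every called gene of the companion lists and neighbours, whereas markers of the lines are given as counts with examples; 1 gene of the lists is not reported here and is left out of their counts. The members and lists were chosen with earlier results of these data known, as were the tests and alternatives. Alternatives tried were normexp, median and quantile scaling, a signal floor, other detection filters and thresholds, the methods' Student test as named there, other rules for probes of a gene, blocks for slide and replicate number, and each array left out.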

Additional observations from a re-analysis of the deposited data

How the results depend on the processing

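No called member changed direction under any alternative run, and beta probes called higher were 10 (well above background on all 6 arrays) to 13 (no fold threshold) over the alternatives. Normexp gave 3 gamma probes higher (7 as reported), 3004 among all probes called higher (5054 as reported) and a member median of 0.34 (0.86). Requiring signals well above background on all 6 arrays left 3 members and 3 alpha probes lower (6), since genes below background in 1 line were no longer tested, and 11 list genes higher (19). Without a fold threshold 30 list genes were higher. Slide as a block, which leaves only pLB replicate 1 to compare with pLUM, gave 4 gamma probes higher and a median of 0.56, and only probes that list 1 gene, an alternative chosen after seeing the data, gave 4. Leaving out each array in turn gave 17 to 21 members higher and 6 to 8 lower, 6 to 7 alpha probes lower, 12 beta probes higher in each case, 4 to 8 gamma probes higher (4 without pLB replicate 3), a median of 0.60 (without pLUM replicate 3) to 0.90, 4994 to 5122 probes higher and 5107 to 6160 lower over the array, and 19 to 20 list genes higher and 13 to 17 lower. Except where the filter is named, the cause was not tested. Same-numbered samples did not deviate together (r -0.265, -0.095 and -0.217). This cannot settle whether the numbers pair the samples, since pLB replicates 2 and 3 were on another slide than the pLUM arrays. With the replicate block 20 members were higher and 6 lower, with a median of 0.86.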
